A study of Mus musculus with 16 samples.

Results

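Inhibitory interneurons make GABA and are sorted into classes by calcium-binding proteins and peptides. The 10 marker genes followed here were Gad1, Gad2, Slc32a1, Pvalb, Sst, Vip, Cck, Calb2, Reln and Erbb4. They were chosen by name, as 10 of the 49671 genes listed, and all 10 had enough reads to be tested. RNA came from the whole brain of C57BL/6 mice at postnatal day 32, with 16 libraries of 1 mouse each. The dam received lipopolysaccharide (LPS), a bacterial cell-wall component that activates innate immunity, or saline by intraperitoneal injection at gestation day 16. Male offspring received LPS or saline by the same route at postnatal day 30. The 4 groups of 4 mice carry names in which the first word was read as the dam's injection, an order that the labels do not state: saline-saline had no LPS, LPS-saline had it only before birth, saline-LPS only at puberty, and LPS-LPS both times. All groups share the strain, the age, and an injection at both times. Litters are not given, so mice that share a dam cannot be told from mice that do not, and each p-value rests on the spread among these 16 mice.

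Gad1 and Gad2 encode the enzymes that make GABA from glutamate, and Slc32a1 encodes the transporter that loads it into synaptic vesicles. Parvalbumin (Pvalb) marks fast-spiking cells, somatostatin (Sst) marks cells that contact dendrites, and vasoactive intestinal peptide (Vip) marks cells that mainly inhibit other interneurons. Cholecystokinin (Cck), calretinin (Calb2), the secreted glycoprotein Reelin (Reln) and the neuregulin receptor Erbb4 mark further or overlapping groups. None of these genes is limited to cortical interneurons. Cck is also made by projection neurons of cortex and hippocampus, Pvalb by Purkinje and molecular layer cells of the cerebellum, Calb2 by cells of the olfactory bulb and thalamus, and Reln by cerebellar granule cells. In whole-brain RNA, fewer cells of a type and less RNA per cell cannot be told apart.

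Libraries held 25729919 to 38571036 gene counts, so that 1 read stood for at most 0.0389 scaled counts (CPM, counts per 1e6 with TMM factors). Several libraries stood apart. The GABA receptor gene Gabra6, which marks granule cells of the cerebellum, had less than 1 CPM in 8 libraries, with at least 1 of them in each group, and between 2.51 and 70.4 CPM in the other 8, although all are labelled whole brain. The library labelled LPS-LPS 3 held 503 CPM of Xist and listed Ddx3y at 0, against the label of male offspring. LPS-LPS 1 held 502.5 CPM of growth hormone (Gh), a pituitary transcript, and saline-LPS 1 held 44.1 CPM. Across 18820 genes, which are not independent replicates, longer genes had lower fold changes in LPS-LPS against saline-saline (Spearman's rho = -0.30).

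Levels between genes can be compared only per length, taken here as all annotated exonic bases of a gene over all its transcripts. How the order depends on that choice was not tested, and the SD does not cover it. Sst led with 244 ± 18.8 CPM per kb of exons (SD over 16 libraries), and Cck followed with 219 ± 26.4. Sst was above Cck in 14 of 16 libraries, and Cck was above all other members in every library. Pvalb (68.2 ± 21.3), Slc32a1 (60.0 ± 2.46) and Calb2 (58.5 ± 8.07) came next and could not be ordered beyond their spread, with Pvalb above Slc32a1 in 7 libraries and Slc32a1 above Calb2 in 10. Gad1 held 49.98 ± 3.17 CPM per kb and Gad2 30.5 ± 2.64, and Gad1 was above Gad2 in all 16. Vip (6.80 ± 0.609), Erbb4 (4.72 ± 0.583) and Reln (4.44 ± 0.487) were the lowest, and Erbb4 exceeded Reln in 12 libraries.

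**Figure D1:**
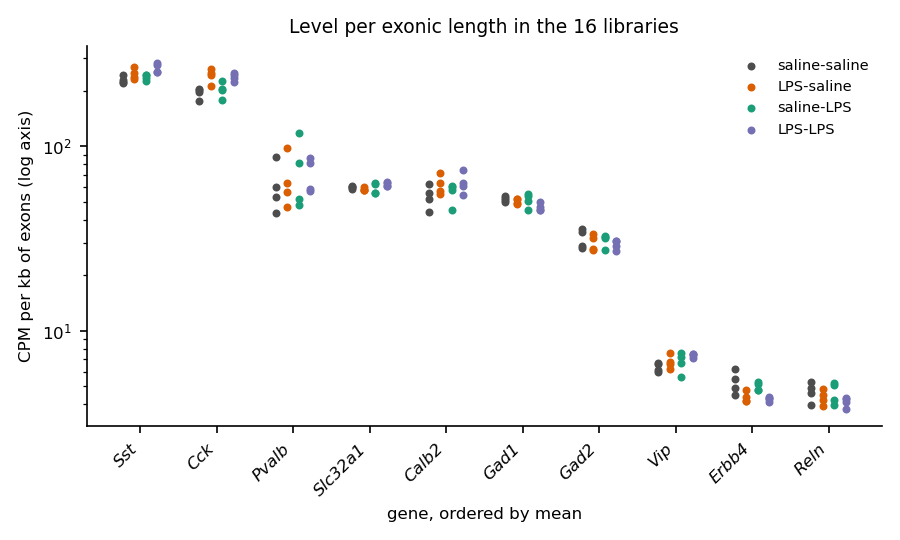
Level of each member in CPM per kb of exons (log axis), with 1 point per library and the groups by colour. Sst and Cck sit at the top, a middle set runs from Pvalb to Gad2, and Vip, Erbb4 and Reln lie lowest. The 4 groups overlap for most genes, and the points of Pvalb are the most spread.

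Members also differed in how much mice of 1 group varied. Pvalb had a within-group coefficient of variation of 33.2%, above 99.7% of the genes with a mean of at least 10 CPM, whose median was 7.34%. Calb2 (13.2%) and Reln (10.6%) were above that median, while Gad1 (5.35%), Sst (5.32%) and Slc32a1 (3.74%) were below it. Slc32a1 was steadier than most genes, at the 4.54th percentile.

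**Figure D2:**
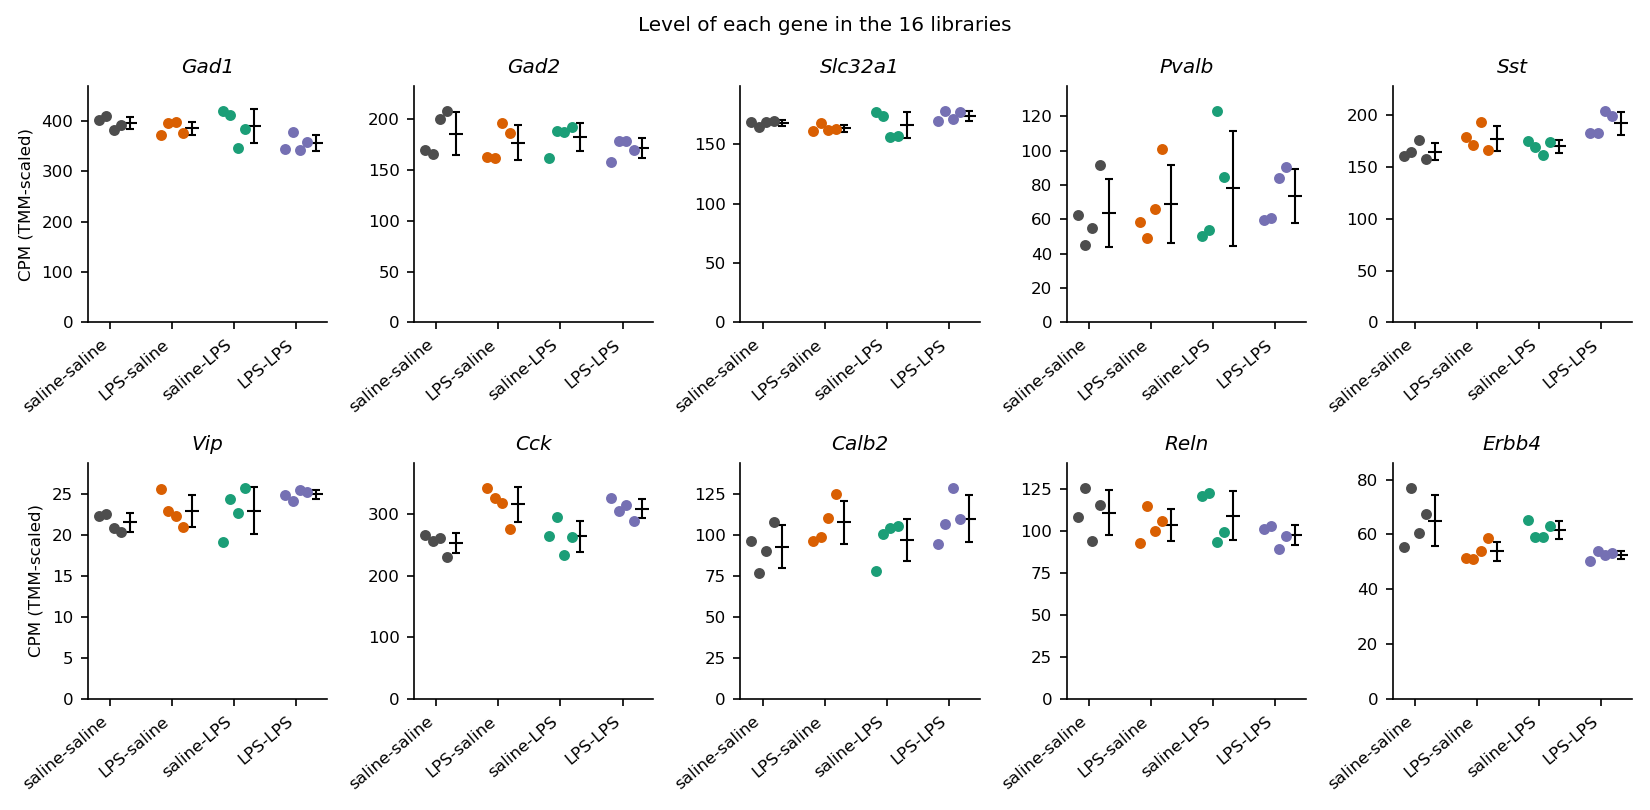
TMM-scaled CPM of the 10 members in each library, with 1 point per mouse, and the mean and SD of each group of 4 beside the points. Cck and Sst lie higher and Erbb4 lower in LPS-LPS than in saline-saline with no overlap, while Pvalb varies about as much within groups as over all libraries.

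The comparison of both injections of LPS with none addressed the combined exposure. Among the members, Sst and Cck were higher and Erbb4 was lower in LPS-LPS than in saline-saline, by 1.17, 1.22 and 1.24-fold, and the other 7 did not pass the test. These 3 calls of 10 stand beside 6.56% of all 18875 tested genes called in either direction, 4.27% higher and 2.29% lower (edgeR's quasi-likelihood test, Benjamini-Hochberg adjusted p under 0.05). The median log2 fold change of the members was 0.13, and that of all tested genes was 0.00. The values of 6 of the 10 members did not overlap between these groups, against 17.4% of tested genes. The call count fell to 0 without saline-saline 2, without saline-saline 4 or without LPS-LPS 3, and to 1 without LPS-LPS 1 or LPS-LPS 4.

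Averaged over the pubertal injection, with 8 mice of LPS-injected dams against 8 of saline-injected dams, Sst, Cck and Erbb4 again passed the test. This comparison uses the same libraries and is not independent of the one before. Here 7.82% of tested genes were called, 4.90% higher and 2.92% lower. Leaving out any 1 library kept Cck and Erbb4 called, and Sst was still called in 6 of 16 such fits. Before pubertal saline alone (LPS-saline against saline-saline) none of the 10 members passed, beside 0.18% of tested genes. An unadjusted p under 0.05 was found for 2 members, beside 2497 of the 18875 tested genes. There the groups of 1 member, Cck, did not overlap, against 9.12% of tested genes. DESeq2 called 2 members there, Cck and Erbb4, beside 429 genes over all. Before pubertal LPS (LPS-LPS against saline-LPS) none passed, beside 0.609% of tested genes. In that comparison 4 members had an unadjusted p under 0.05, beside 2637 of the 18875 tested genes, and DESeq2 called no member. The groups of 2 members, Sst and Erbb4, did not overlap, against 7.94% of tested genes. Each of these 2 comparisons has 4 mice on either side, and they share libraries with the comparison of both injections.

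**Figure D3:**
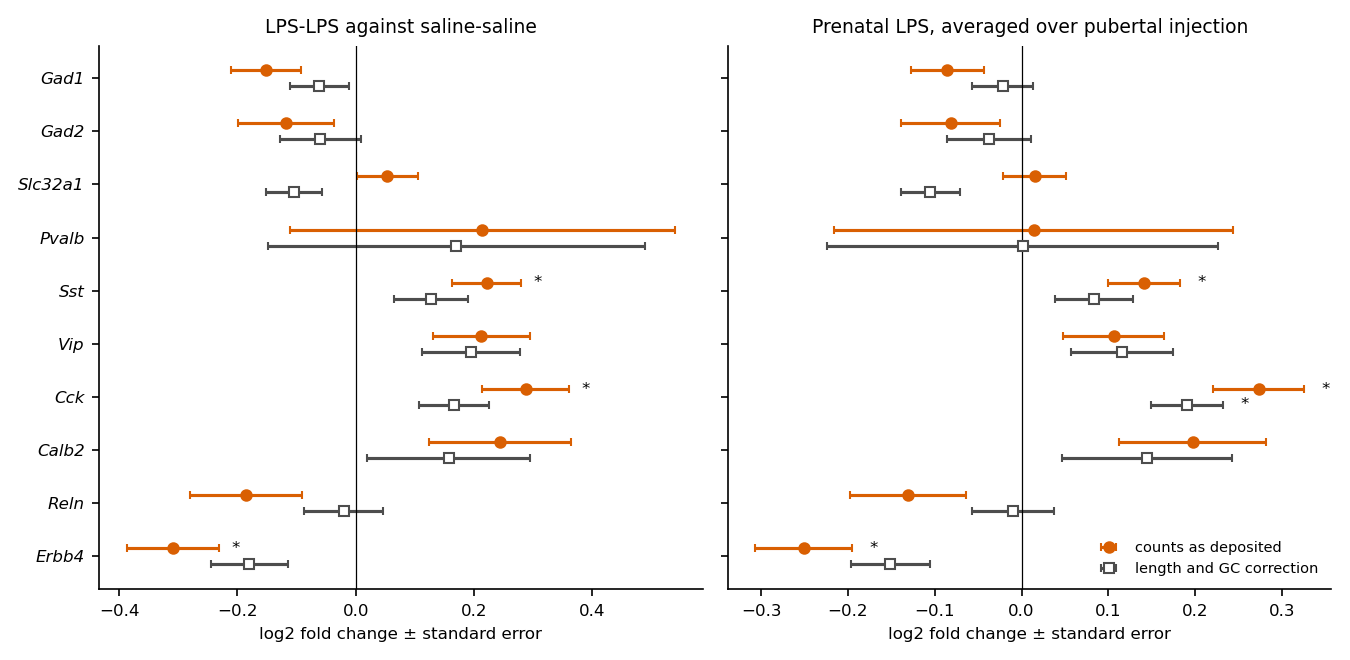
Log2 fold change of each member with its standard error, for LPS-LPS against saline-saline (left) and for prenatal LPS averaged over the pubertal injection (right). Filled circles are counts as deposited, open squares the fit with a length and GC correction, and an asterisk marks an adjusted p under 0.05. Sst, Cck and Erbb4 carry an asterisk in both panels without the correction, and with it only Cck does, in the right panel.

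Of the 3 members that make and load GABA, none passed the test in any comparison of treatments in the fit of all 16 libraries. Gad1 (chr2:70553072-70602014, plus strand, GRCm38) read 401, 409.8, 382 and 391 CPM in saline-saline and 345, 379, 342 and 359 in LPS-LPS. The 2 groups did not overlap, but the log2 difference of -0.15 ± 0.06 (SE) had an adjusted p of 0.127. In a fit of only these 2 groups it passed, at -0.16 ± 0.05 (adjusted p = 0.0377). The LPS-saline mice (372 to 397 CPM) and saline-LPS mice (346 to 419 CPM) lay across both ranges. Gad2 (chr2:22622205-22693874, plus strand), which makes the enzyme form bound to synaptic vesicles, had 166 to 208 CPM in saline-saline against 158 to 179 in LPS-LPS, ranges that overlap. Its log2 difference was -0.12 ± 0.08 with an adjusted p of 0.43. In the libraries with Gabra6 at 1 CPM or more it was -0.29. There saline-saline keeps only saline-saline 4, which had the highest Gad2 value (208 CPM).

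Slc32a1 (chr2:158610767-158615748, plus strand) read 168.5, 164, 169 and 169 CPM in saline-saline and 169.9, 178, 171 and 177 in LPS-LPS. The groups touched without overlapping, with a log2 difference of 0.05 ± 0.05 and an adjusted p of 0.596. With a length and GC correction that difference was -0.10, so its direction rests on the scaling. Slc32a1 shares exonic bases with the antisense gene Gm14205, whose reads cannot be told apart without strand. The ratio of Gad1 to Slc32a1 CPM was 2.05 ± 0.0576 in LPS-LPS, where it ran from 2 to 2.13, and 2.21 to 2.5 over the other 12 libraries. That ratio was picked out after its values were seen and is given with no test. The 2 genes differ in length and in GC content of the transcript (47.3% and 61.9%), properties on which the libraries differ.

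The 3 peptide genes had higher means in LPS-LPS than in saline-saline, and Sst and Cck passed the test. Sst (chr16:23889573-23890958, minus strand) read 160.4, 165, 176 and 158 CPM in saline-saline, and 183, 183, 204 and 199 in LPS-LPS. Every LPS-LPS mouse was above every saline-saline mouse, with a log2 difference of 0.22 ± 0.06 (1.17-fold, adjusted p = 0.0283). LPS-saline mice had 179, 172, 193 and 166.5 CPM and saline-LPS mice 176, 169, 162 and 175, so both groups that received 1 LPS injection overlapped with saline-saline. Averaged over the pubertal injection the log2 difference was 0.14 ± 0.04 (adjusted p = 0.041). Without LPS-LPS 3, the highest Sst value, the differences were 0.19 (adjusted p = 0.113) and 0.13 (adjusted p = 0.0973).

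Cck (chr9:121489824-121495694, minus strand) showed the smallest p of the members for prenatal LPS. The saline-saline mice had 265.5, 256.5, 262 and 229.6 CPM and the saline-LPS mice 265, 295, 233 and 263. The LPS-saline mice had 343, 327, 318 and 276 CPM and the LPS-LPS mice 327, 305, 315 and 289. Both groups of LPS-injected dams lay above saline-saline without overlap, and only saline-LPS 2 (295 CPM) reached their lower end. Cck rose by 0.27 ± 0.05 on the log2 scale in the averaged comparison (adjusted p = 0.00407) and by 0.29 ± 0.07 in LPS-LPS against saline-saline (1.22-fold, adjusted p = 0.0252). Before pubertal saline the difference was 0.32 ± 0.07 (adjusted p = 0.0653), and before pubertal LPS it was 0.23 ± 0.07 (adjusted p = 0.163). With the replicate number of the labels as a block, both passed, with adjusted p-values of 0.0111 and 0.0471.

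Without LPS-LPS 3 the averaged Cck difference was 0.27 (adjusted p = 0.0126), while that between LPS-LPS and saline-saline was 0.28 (adjusted p = 0.0796). Without LPS-LPS 1 the same differences were 0.26 (adjusted p = 0.0121) and 0.26 (adjusted p = 0.0781). The ratio of Cck to Gad1 CPM ran from 0.587 to 0.717 in the 8 mice of saline-injected dams and from 0.735 to 0.947 in the 8 of LPS-injected dams, as a description with no test. The ratio of Cck to Slc17a7, the vesicular glutamate transporter of cortical and hippocampal projection neurons, overlapped between saline-saline (0.167 to 0.181), saline-LPS (0.174 to 0.181) and LPS-LPS (0.166 to 0.201). In LPS-saline that ratio ran from 0.183 to 0.208, above both groups of saline-injected dams. Slc17a7 itself rose in the averaged comparison, by 0.17 ± 0.05 (adjusted p = 0.042).

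Vip (chr10:5639218-5647617, plus strand) read 22.4, 22.6, 20.9 and 20.3 CPM in saline-saline and 25.0, 24.2, 25.5 and 25.3 in LPS-LPS. The LPS-LPS mice were close together and all above the saline-saline mice, but the log2 difference of 0.21 ± 0.08 had an adjusted p of 0.126. In a fit of only these 2 groups Vip passed, at 0.20 ± 0.06 (adjusted p = 0.0448). The saline-LPS mice (19.2 to 25.8 CPM) spanned both ranges.

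The start regions of the peptide genes are shown because the cAMP response element, the site bound by the transcription factor CREB, is a known feature of such genes. RefSeq promoter windows (GRCm38.p6, 250 bases before to 50 after the start) matched 9 of the 10 members, all but Calb2. The half-site TGACG, searched on both strands where it also reads CGTCA, was found in 4 of these 9 genes, Sst, Vip, Cck and Gad2, and in 20.8% of all 32851 promoter windows of the same length. The full palindrome TGACGTCA, which holds the half-site on each strand, was found in Sst and in 1.79% of windows. For Sst and Gad2, whose RefSeq start lies inside the GENCODE gene, 30 bases around the match are given, and for Vip and Cck the 120 bases before the start. Each runs 5′ to 3′ on the gene's strand with the matching letters in capitals.
Sst, chr16:23890874-23890903, minus strand: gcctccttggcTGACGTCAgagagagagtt
Gad2, chr2:22622281-22622310, plus strand: tccatttcccttcCGTCActctctcatctc
Vip, chr10:5639098-5639217, plus strand: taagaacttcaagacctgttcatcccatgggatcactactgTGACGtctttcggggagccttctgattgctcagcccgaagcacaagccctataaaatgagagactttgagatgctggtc
Cck, chr9:121495695-121495814, minus strand: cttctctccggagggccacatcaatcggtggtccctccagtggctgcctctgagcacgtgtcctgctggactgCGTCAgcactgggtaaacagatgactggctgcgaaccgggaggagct
The match nearest the start lay 45 bases before it in Sst, 47 in Cck, 79 in Vip and 33 in Gad2. These letters were shared by the 2 peptide genes that passed the test and by 2 members that did not, and they describe the windows only.

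The calcium-binding proteins did not pass the test in any comparison of treatments without the replicate block. Pvalb (chr15:78191114-78206400, minus strand) read 62.5, 45.2, 55.0 and 91.4 CPM in saline-saline, 58.7, 48.9, 66.0 and 101 in LPS-saline, 50.2, 53.8, 123 and 84.9 in saline-LPS, and 59.7, 60.7, 84.1 and 90.1 in LPS-LPS. Each group held low and high mice, and all 4 groups overlapped. The log2 difference of LPS-LPS from saline-saline was 0.21 ± 0.33 (adjusted p = 0.765), and the averaged difference was 0.01 ± 0.23. Calb2 (chr8:110137502-110168210, minus strand) had 76.8 to 108 CPM in saline-saline against 94.4 to 129 in LPS-LPS, which overlap, with a log2 difference of 0.24 ± 0.12 (adjusted p = 0.249). Its averaged difference was 0.20 ± 0.08 (adjusted p = 0.169), and with the replicate block it passed (0.20 ± 0.06, adjusted p = 0.0494).

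Pvalb differed between libraries with and without granule cell transcripts. In the 8 libraries with Gabra6 under 1 CPM it lay between 45.2 and 62.5 CPM, and in the other 8 between 59.7 and 123. Only LPS-LPS 1, with 2.51 CPM of Gabra6, had a value inside the lower range. With the groups held in the model, Pvalb was higher by 0.70 ± 0.15 on the log2 scale in the libraries at 1 CPM or more (adjusted p = 0.0122), and 13.8% of tested genes were called for this split. The split is by a measured transcript and is not a study group. The other members did not pass: Calb2 differed by 0.22 ± 0.07 (adjusted p = 0.0504), Cck by -0.13 ± 0.05 (adjusted p = 0.0502), Gad2 by 0.13 ± 0.05 and Gad1 by -0.08 ± 0.04. Reln, which granule cells also make, differed by -0.10 ± 0.07 (adjusted p = 0.333). Replicate numbers run with the split, since 7 of the 8 low libraries are replicates 1 or 2 and 7 of the 8 others are replicates 3 or 4. With the replicate block the Pvalb difference was 0.34 ± 0.30 (adjusted p = 1), so the split and the replicate number cannot be told apart. With log2 Gabra6 as a covariate, the standard error of the averaged Pvalb difference dropped from 0.23 to 0.08, and the difference was -0.04.

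**Figure D4:**
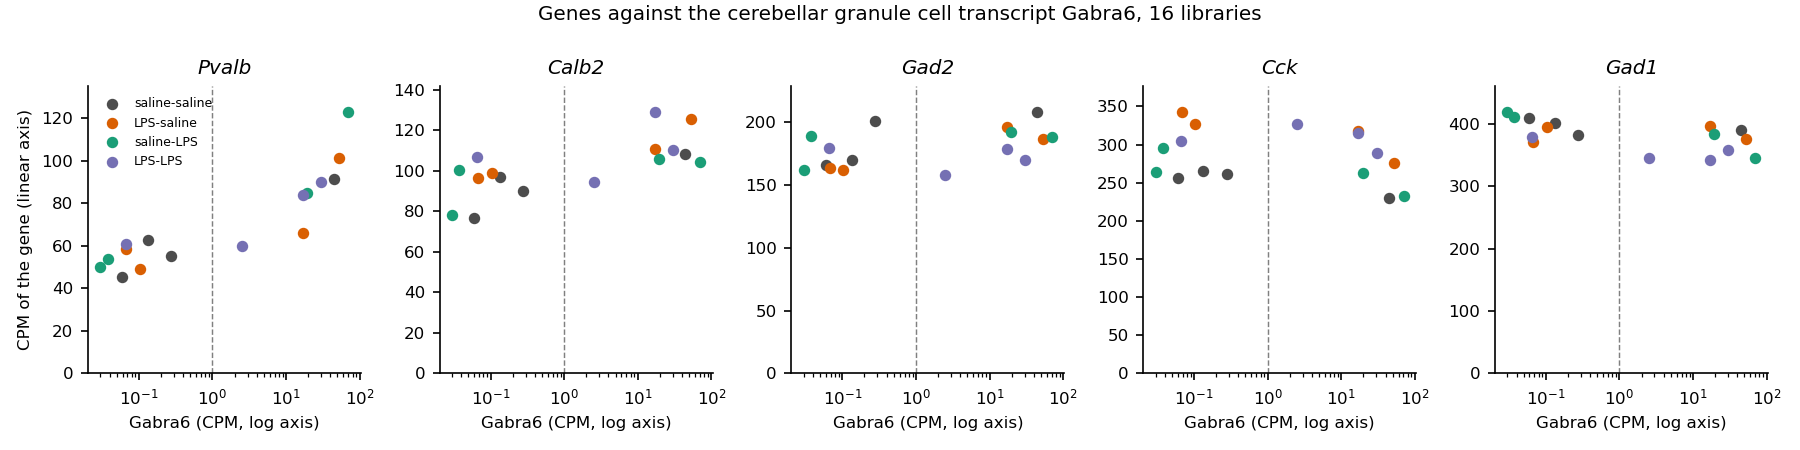
CPM of Pvalb, Calb2, Gad2, Cck and Gad1 (linear axes) against CPM of Gabra6 (log axis) in 16 libraries coloured by group, with a dashed line at 1 CPM; saline-LPS 1, at 0 CPM of Gabra6, is drawn at the left edge. Pvalb is at most 62.5 CPM left of the line and reaches 123 CPM right of it, while Gad1 and Gad2 overlap across it.

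Erbb4 fell and Reln did not pass the test. Erbb4 (chr1:68032186-69108059, minus strand) encodes a receptor tyrosine kinase for neuregulins that in cortex is found mainly on interneurons. It read 55.4, 77.0, 60.5 and 67.4 CPM in saline-saline and 50.5, 53.8, 52.6 and 53.2 in LPS-LPS, with no overlap. The saline-LPS mice had 65.4, 58.95, 58.9 and 63.2 CPM and the LPS-saline mice 51.5, 51.1, 54.1 and 58.8. Erbb4 fell by 0.31 ± 0.08 on the log2 scale in LPS-LPS against saline-saline (adjusted p = 0.0237) and by 0.25 ± 0.06 in the averaged comparison (adjusted p = 0.00966). Before pubertal saline the difference was -0.27 ± 0.08 (adjusted p = 0.116), and before pubertal LPS it was -0.23 ± 0.08 (adjusted p = 0.184). Saline-saline 2 was the highest of all 16 libraries, and without it the difference between LPS-LPS and saline-saline was -0.22 (adjusted p = 0.088). Without LPS-LPS 3 the same difference was -0.31 (adjusted p = 0.0734), and the averaged one was -0.25 (adjusted p = 0.0247).

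Reln (chr5:21884454-22344702, minus strand) had 94.4 to 126 CPM in saline-saline against 89.2 to 103 in LPS-LPS, which overlap. Its log2 difference was -0.19 ± 0.09 (adjusted p = 0.26) and its averaged difference -0.13 ± 0.07 (adjusted p = 0.249). With the length and GC correction both were near 0, at -0.02 and -0.01. Reln has the longest exonic sequence of the members, 23738 bases, and shares exonic bases with the antisense gene Gm10475.

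Member length moved with these results. Sst (721 exonic bases) and Cck (1305) are short and were higher, and Erbb4 (12355) is long and was lower. After offsets fitted in each library on exonic length and GC content, none of the 10 members passed in LPS-LPS against saline-saline. The differences were then 0.13 for Sst (adjusted p = 0.29), 0.17 for Cck (adjusted p = 0.128) and -0.18 for Erbb4 (adjusted p = 0.139). In the averaged comparison Cck alone passed, at 0.19 ± 0.04 (adjusted p = 0.0131), with Erbb4 at -0.15 (adjusted p = 0.0712) and Sst at 0.08 (adjusted p = 0.319). With the replicate block added to that correction, Cck (adjusted p = 0.00458) and Erbb4 (adjusted p = 0.0465) passed in the averaged comparison.

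Injection of LPS at postnatal day 30 gave no called member. After prenatal saline (saline-LPS against saline-saline), after prenatal LPS (LPS-LPS against LPS-saline), averaged over the prenatal injection, and for the interaction, edgeR called 0 of 10 members and 0% of tested genes. No member had an unadjusted p under 0.05 in these 4 comparisons, and DESeq2 called no member. Of all tested genes, 535, 756, 947 and 402 had an unadjusted p under 0.05, in the same order, where 944 are expected if no gene differs. DESeq2 called 0, 9, 7 and 2 genes. The smallest unadjusted p for the averaged pubertal effect was that of Sst, with a log2 difference of 0.08 ± 0.04 (adjusted p = 0.951). For Cck the same difference was 0.01 ± 0.05, and the interaction of the injections was -0.09 ± 0.10 (adjusted p = 1). Gad1 differed by -0.11 ± 0.06 between LPS-LPS and LPS-saline, and Slc32a1 by 0.09 ± 0.05, both with an adjusted p of 1.

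Genes that work with the members were read from lists chosen with earlier results of these data known. Of 8 genes of GABA uptake and breakdown, 1 was higher and 2 were lower in LPS-LPS against saline-saline, with a list median of -0.16 on the log2 scale beside 0.00 for all tested genes. Slc6a13, a GABA transporter of meninges and liver, rose by 0.51 ± 0.10 (12.2 ± 0.847 to 17.3 ± 1.05 CPM, adjusted p = 0.00808) and stayed called with the length and GC correction (adjusted p = 0.0293). The glutamine transporter Slc38a1 fell by 0.23 ± 0.06 and Aldh5a1, which completes GABA breakdown, fell by 0.19 ± 0.05. Both calls were lost with the correction (adjusted p = 0.444 and 0.0998). In the averaged comparison 0 of the 8 were higher and 3 lower, Abat, Aldh5a1 and Slc38a1. Abat encodes GABA transaminase and fell by 0.17 ± 0.04 (adjusted p = 0.0159). In the averaged comparison with the correction, Aldh5a1 was the 1 still called (adjusted p = 0.0396).

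Of 18 transcription factors of GABAergic neurons, Sox6, needed by Pvalb and Sst cells in development, was the 1 called in LPS-LPS against saline-saline, where it fell by 0.31 ± 0.08, a call lost with the correction (adjusted p = 0.254). In the averaged comparison Sox6 fell by 0.22 ± 0.06, and Sp8 (0.30 ± 0.08, adjusted p = 0.0259) and Dlx2 (0.28 ± 0.08, adjusted p = 0.0383) rose. Sp8 is also a factor of olfactory bulb interneurons, and it was the 1 still called with the correction (adjusted p = 0.0294). The list median in the averaged comparison was 0.07.

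Of 18 further peptides and subtype genes, 2 were higher and 0 lower in LPS-LPS against saline-saline. Neuropeptide Y (Npy), found in many Sst cells, rose by 0.28 ± 0.05 (53.3 ± 2.93 to 64.8 ± 1.66 CPM, adjusted p = 0.00629), and Lamp5, a marker of neurogliaform cells, rose by 0.29 ± 0.08 (adjusted p = 0.03). With the length and GC correction Lamp5 was not called (adjusted p = 0.0677). Npy was also the 1 called in the averaged comparison, at 0.18 ± 0.04, and it stayed called with the correction in both comparisons (adjusted p = 0.0121 and 0.0119).

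Of 14 genes of fast-spiking channels and the perineuronal net, 0 were higher and 2 lower in LPS-LPS against saline-saline, with a list median of -0.13. The extracellular matrix gene Tnr fell by 0.28 ± 0.07 (adjusted p = 0.0172) and the potassium channel gene Kcnc2 by 0.31 ± 0.09 (adjusted p = 0.0367). In the averaged comparison Tnr, Kcnc2 and Ptprz1 were the 3 called, all lower. None of the 14 was called in either comparison with the length and GC correction.

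Receptors and signalling partners showed few calls. None of 10 receptors of the member peptides passed in LPS-LPS against saline-saline, and the somatostatin receptor Sstr3 was the 1 called in the averaged comparison, at 0.18 ± 0.05 (adjusted p = 0.0254), a call lost with the length and GC correction (adjusted p = 0.124). Of 8 Reelin signalling genes, the adaptor gene Crkl fell, by 0.31 ± 0.08 in LPS-LPS against saline-saline and by 0.21 ± 0.06 in the averaged comparison, and it stayed called with the correction (adjusted p = 0.0359 and 0.0422). Of 10 neuregulin and Erbb genes, Bace1, a protease that cleaves neuregulin, fell by 0.19 ± 0.06 in LPS-LPS against saline-saline (adjusted p = 0.0445), which was lost with the correction (adjusted p = 0.194), and none was called in the averaged comparison. For the interaction, 0 genes of these 7 lists passed.

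Markers of other cells and regions moved beside these differences, and their part in them was not tested. Over 9 genes of cortical and hippocampal projection neurons the summed level was 1964 to 2196 CPM in saline-saline against 2190 to 2479 in LPS-LPS, and 2 of the 9, Emx1 and Rprm, were called higher. With the length and GC correction neither was (adjusted p = 0.0822 and 0.0933). Over 8 genes of thalamus and midbrain the sum was 271.5 to 319 CPM in saline-saline against 164 to 231.5 in LPS-LPS, and 2 of the 8, Plekhg1 and Rgs16, were called lower. With the correction Rgs16 stayed called (adjusted p = 0.0293) and Plekhg1 did not (adjusted p = 0.0511). Over 7 olfactory bulb genes the sums were 229 to 255 and 259 to 288 CPM, and over 8 striatal genes 878 to 989.6 and 761 to 1041 CPM. In these 4 lists no gene was at 0 throughout a group. Over 8 hypothalamic genes the sum was 70.3 to 253 CPM for the LPS-LPS mice, with no overlap against 44.9 to 67.1 CPM for the saline-saline mice. The highest sum was that of LPS-LPS 1, where Pomc alone read 188 CPM, against 5.17 to 5.63 CPM in the other LPS-LPS mice. That library also held 502.5 CPM of the pituitary transcript Gh. All 8 genes had log2 fold changes above 0, with a median of 0.56. The thyrotropin-releasing hormone gene Trh was the 1 called (0.45, adjusted p = 0.00773) and stayed called with the correction (adjusted p = 0.0284). Single genes of glial lists were also called in this comparison. Gfap of astrocytes (0.33, adjusted p = 0.0103) and Aif1 of microglia (0.54, adjusted p = 0.0225) were higher, each the 1 call of 6 genes. Mal (-0.50, adjusted p = 0.00235) and Mag (-0.36, adjusted p = 0.0449) were lower, 2 of 6 oligodendrocyte genes. These 4 glial genes stayed called with the correction. No gene of the granule, Purkinje, striatal, olfactory bulb, pituitary, endothelial or choroid plexus lists was called without the correction. The cerebellar granule sum, 174 to 558 CPM in saline-saline against 172 to 361 in LPS-LPS, overlapped between groups.

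By their deviations from group means over the 16 libraries, each member was set beside 13734 other genes, and the closest are given as a likeness with no test. Libraries share depth, the Gabra6 split and the length trend, and any of these can raise such a value. Pvalb was closest to Dao (Pearson's r = 0.97, Spearman's rho = 0.94), Uncx and Megf11. Cck was closest to Ppp1r16a (0.93 and 0.85), Tmem115 and Camkv, a gene of forebrain excitatory neurons. Erbb4 was closest to Eml5 (0.88 and 0.75), Atad2b and Chd1, which have exonic lengths of 8721 to 15110 bases. Sst was closest to Gfpt2 (0.81 and 0.85), Ccdc71l and Clec11a. Gad1 was closest to C1qtnf1, Fat3 and Prickle2, Gad2 to Cntnap5a and Zrsr2, and Slc32a1 to Smpd3, Arel1 and Asxl1. Vip was closest to Med11, Lamp5 and Uqcc3, Calb2 to Sephs2, Zfp617 and Ube2e3, and Reln to Amigo3, Rad54l2 and Rasa3.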

How the data were processed

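The deposited files hold whole-number counts of reads per Ensembl gene, which the authors made on GRCm38 using STAR 2.5.2b, then HTSeq 0.11.2, according to the submitters' processing notes. Strand setting, annotation release and read filters were not given in the sources used here. Reads without a gene (8.37 to 11.0%), ambiguous reads (5.11 to 5.48%) and reads that did not align uniquely (3.18 to 3.90%) were left out. Symbols, positions and exonic lengths came from GENCODE M21, in which 49326 of 49671 identifiers matched. No libraries of a group were duplicates.

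Genes were filtered with filterByExpr, scaled by TMM and tested with edgeR 4.0.16 (R 4.3.3) by a robust quasi-likelihood fit of all 16 libraries in 4 groups, two-sided, with Benjamini-Hochberg adjustment over 18875 genes and 0.05 as the limit. Alternatives were DESeq2 1.42.0, RLE factors, no filter, a replicate block, length and GC offsets (splines with 5 degrees of freedom each), Gabra6 as a covariate or split at 1 CPM, only the groups compared, and leaving out each library. On simulated counts with 200 changed genes of 18875, LPS-LPS against saline-saline recovered 55.5% of changes of 0.5 log2 units and 81.5% of changes of 1. Of the calls, 6.72% and 2.98% were false, in the same order. Smaller changes were not simulated, and the member differences between treatments in the main fit ran from -0.309 to 0.318. Floors and depths cover counting error only, since reads carry no molecular identifiers.

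The members, lists and tests were chosen with earlier results of these data known. All 10 members are named, with up to 4 called genes of smallest p per list, marker genes beside a result, and the 3 genes most like each member with a mean of at least 1 CPM, predicted genes and pseudogenes left out. Some results that this rule takes are not reported here.

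Replicate numbers come from the labels. Over 15230 genes, deviations of libraries with the same number correlated from 0.154 to 0.616 between LPS-saline and saline-saline, from 0.304 to 0.400 between LPS-LPS and saline-LPS, and from 0.196 to 0.343 between LPS-LPS and LPS-saline. Each pair was over 0.1 there. Between LPS-LPS and saline-saline (0.0213 to 0.387) and between saline-LPS and saline-saline (0.0385 to 0.344) not every pair was. The numbers also run with the Gabra6 split, since 7 of the 8 libraries under 1 CPM are replicates 1 or 2. These correlations therefore cannot tell a pairing of mice from that split. The main fit did not use the numbers, and the replicate block is given only as an alternative.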

Additional observations from a re-analysis of the deposited data

Results flagged for a closer look

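Of 40 groups of 4 values, 10 members in 4 groups, 2 held a library far from the other 3 by Dixon's criterion (gap over range above 0.829), and chance gives about 1 in 20. Gad2 in saline-LPS 1 was lowest at 161.7 CPM, against 188 to 192 in the other 3, with a gap over range of 0.859. Slc32a1 in saline-saline 2 was lowest at 164.1 CPM, with a gap over range of 0.867, although the whole group spanned only 164 to 169 CPM. The prenatal difference of Slc32a1 had opposite directions in every library between the pubertal injections: the 4 LPS-saline mice lay below the saline-saline mean (168 CPM), and the 4 LPS-LPS mice lay above the saline-LPS mean (166 CPM). The interaction was 0.106 ± 0.0721 on the log2 scale with an adjusted p of 1, so the difference between the backgrounds did not pass.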

How the results depend on the processing

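Of 766 fits of single genes under an alternative, over 31 results, 672 kept direction and side of the threshold, 41 lost the call, 35 gained one and 18 changed direction. Where no other cause is stated, the cause of a change was not tested. Members called for prenatal LPS before pubertal saline were 0, and 1 with no filter, with the replicate block, with block and length and GC correction or with only the groups compared, and 2 with Gabra6 as a covariate or DESeq2. Before pubertal LPS they were 0, and 1 with the replicate block or the covariate and 2 with libraries of Gabra6 at 1 CPM or more. For both injections against none they were 3, and 0 with the length and GC correction (with or without the block) or in libraries with Gabra6 under 1 CPM, where saline-saline keeps 3 libraries and LPS-LPS 1, and 5 with only the groups compared, Gad1 and Vip joining. Averaged over the pubertal injection they were 3, and 1 with the correction and 0 in libraries with Gabra6 under 1 CPM. With the replicate block this count was 4, Calb2 joining at an adjusted p of 0.0494. By Gabra6 set it was 1, and 2 with RLE factors, 4 with no filter or the covariate, 3 with DESeq2 and 0 with the replicate block, which runs with the set. The replicate block changed no other count of members by over 1.5 times, and 10 of the 16 libraries resembled a library of their own number most closely.

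Leaving out 1 library gave 0 to 1 members before pubertal saline (1, Cck, without LPS-saline 4 or saline-LPS 1), 0 to 3 for both injections, 2 to 3 for the averaged comparison and 1 to 4 by Gabra6 set (4 without LPS-LPS 1 or LPS-LPS 2). Direction changed for Slc32a1, which for both injections was -0.104 with the length and GC correction and -0.105 with the block added, and in the averaged comparison -0.105, -0.106, -0.00595 in libraries with Gabra6 under 1 CPM, and -0.00101 to 0.0319 without 1 library. Pvalb was -0.22 for both injections in libraries with Gabra6 at 1 CPM or more, where saline-saline keeps only saline-saline 4. Its averaged difference was -0.0423 with the covariate, -0.272 in libraries with Gabra6 at 1 CPM or more, and -0.11 to 0.165 without 1 library. Gad2 by Gabra6 set was -0.00529 with the block.

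Over all genes, 34 calls before pubertal saline became 127 with no filter, 409 with the block, 129 with block and correction, 532 with the covariate, 233 with only the groups compared, 429 with DESeq2, and 12 and 1 in the libraries under and over the Gabra6 limit. The 115 before pubertal LPS became 178, 326, 465, 29 and 412 with no filter, block, covariate, only groups and DESeq2, 50 with the correction, and 5 and 882 by Gabra6. The 1238 for both injections became 2185 with the block, 516 with the correction, 2259 with the covariate, 2271 with only the groups, 2003 with DESeq2 and 5 in libraries with Gabra6 under 1 CPM. The 1476 of the averaged comparison became 2495, 633, 2728 and 2279 with block, correction, covariate and DESeq2, and 13 and 739 by Gabra6. The 2607 by Gabra6 set became 1 with the block. At 0 calls, pubertal LPS after prenatal LPS became 4 with no filter, 1 with the covariate, 7 with only the groups, 9 with DESeq2 and 20 with Gabra6 at 1 CPM or more, its average over the prenatal injection became 7 with DESeq2, and 6 and 50 by Gabra6, and the interaction 2 with DESeq2. Without 1 library the calls were 7 to 391, 22 to 118, 300 to 2000, 721 to 1664 and 1268 to 3356, in the same order of comparisons. Members had 544 to 15264 reads per library, the fewest for Vip.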

Other observations

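Genes related to the members also differed by the Gabra6 split, for which 13.8% of all tested genes were called. Whether the lists below differ from that share was not tested. Of 18 further peptides and subtype genes, 4 were higher and 1 lower in libraries with Gabra6 at 1 CPM or more. Calb1, the calbindin gene of Purkinje cells among others, differed by 0.44 (adjusted p = 0.00619), Chodl by 0.63 (adjusted p = 0.0128), Sncg by 0.52 and Cnr1 by 0.21, while Cort differed by -0.33 (adjusted p = 0.0115). Of 10 receptors of the member peptides 2 were lower, Vipr1 (-0.29) and Cckbr (-0.16). Of 14 fast-spiking and perineuronal net genes, Syt2 was higher (0.40) and Ncan (-0.20) and Bcan (-0.24) were lower. These values run with the replicate number, as they do for Pvalb.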
